A study of Mus musculus with 10 samples.

Results

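The mitochondrial ribosome, or mitoribosome, is built from proteins that carry the symbols Mrpl (large subunit) and Mrps (small subunit), and these genes were examined in interscapular brown adipose tissue (iBAT) of cold-exposed mice that lacked the long noncoding RNA Gm15551 and of their wild type counterparts. Members were chosen by name alone, as the protein-coding records whose symbol starts with Mrpl or Mrps, which gave 78 genes (49 Mrpl and 29 Mrps) of 54347 gene records. All 78 passed the filter on low counts, and they were tested among 13733 genes. The data held 5 ΔGm15551 mice and 5 wild type mice, all of 12 weeks of age, on a C57BL/6N background, and iBAT was taken after 24 h of housing at 4 °C. The knockout is a germline CRISPR/Cas9 deletion of the first exon of Gm15551, so every cell type of the animal carries it. Per the labels the mice were housed singly in the cold, and per the study's methods they ate chow. No mouse in this comparison was kept at room temperature, so the values describe cold-exposed tissue only. Polyadenylated RNA was sequenced, and the values below are CPM (10000 CPM are 1% of a library's counts, after scaling by TMM factors that correct for library composition).

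Mitoribosomes translate the few proteins encoded in mitochondrial DNA, all of them subunits of the respiratory chain and ATP synthase. Every mitoribosomal protein is encoded in the nucleus, made in the cytosol and imported, and is assembled with ribosomal RNA from the mitochondrial genome. Some are counterparts of bacterial ribosomal proteins, called conserved here, and others were added in mitochondria, called mitochondria-specific. Brown adipocytes are packed with mitochondria, whose respiratory chain is uncoupled by Ucp1 to release heat in the cold.

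In outline, no Mrp gene passed the test between genotypes, where 0.0% of all genes tested did. The 95% interval of the difference lay inside a 2-fold change for 78 of 78 members and for 90.0% of all genes. The same held for 9642 of 9864 protein-coding genes in the members' range of CPM. In 77 of 78 members the level lay above the median protein-coding gene. Levels spanned a 56.6-fold range per kilobase of the longest transcript, or a 30.9-fold range without Mrpl23, whose low value is uncertain. These folds hold for that length only, as levels per kilobase depended on the length used. Of the variation between mice of the same genotype, a single axis held 69.6% in the members and 41.9% in all genes, with 53 members on one side and 25 on the other. Without the 3 mice of highest score these shares were 52.4% and 37.5%.

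Depth ran from 9680976 to 15771170 counts per mouse. Gm15551 was counted 0 times in each ΔGm15551 mouse, and 1, 2, 6, 7 and 0 times in wild type replicates 2, 3, 5, 6 and 7. At 0 counts, the library labelled wild type replicate 7 could not be told from a knockout by this gene, and the between-mouse results that it dominates are also given without it. All 8 brown adipocyte and all 6 common adipocyte markers were counted in every mouse. The 10 skeletal muscle markers summed to between 1.30 and 1959 CPM in ΔGm15551 mice and between 1.46 and 3134 CPM in wild type mice (relative to library totals, without TMM factors), with the highest sums in knockout replicate 4 and wild type replicate 7. By the animal identifiers in the labels, which are not the replicate numbers, wild type replicates 5, 6 and 7 come from a higher number series that holds no knockout, so that series and the wild type genotype cannot be told apart for those 3 mice. In whole tissue, fewer cells of a type and less RNA per cell cannot be told apart.

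The Mrp genes were spread over 17 chromosomes, with 11 of them on chromosome 11. Gm15551 lies on chromosome 3, and the nearest of the 5 members on that chromosome, Mrps21, was 30.8 Mb away (GRCm38, GENCODE M21). A common trait was a start near that of a neighbour. In 33 of 78 members (42.3%) another protein-coding gene started on the opposite strand within 1000 bp, and in 21 of these within 200 bp. The share among 21832 annotated protein-coding genes, expressed in iBAT or not, was 10.9% (2384 genes). A share among tested genes alone was not computed. One pair of neighbouring starts joins both subunits, as Mrpl46 of the large and Mrps11 of the small subunit start on opposite strands within 1000 bp. Mrps12, of the decoding centre, starts 172 bp from Sars2, the mitochondrial seryl-tRNA synthetase. Mrpl36 and Mrpl47 adjoin Ndufs6 and Ndufb5, both subunits of respiratory complex I, and Mrpl43 adjoins Twnk, the helicase that replicates mitochondrial DNA. Of the 33 partners 30 were tested, and 2, Klc4 and Ppp1r10, had an unadjusted p under 0.05, which 1.6% of all genes tested had. Across pairs, the log2 CPM values of member and partner had a Pearson r of -0.07, given as a description.

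RefSeq promoters (GRCm38.p6, from 250 bases before to 50 bases after a start) were matched for 69 of 78 members, in 75 promoters, and not for Mrpl4, Mrpl13, Mrpl15, Mrpl19, Mrpl38, Mrpl54, Mrps28, Mrps34 and Mrps35. The ETS letters CCGGAAG, recognised by factors such as GABP, were found on either strand in 34.7% of them, against 17.1% of the 12482 promoters of tested protein-coding genes and 8.86% of all 32851 promoters. The letters of YY1 (AAGATGGCG) were found in 10.7%, against 2.96% and 1.40%. The letters of NRF1 (GCGCATGCG), a factor known for nuclear genes of the respiratory chain, were found in 9.33%, against 3.52% and 1.75%. A TATAAA stretch was found in 6.67% of the members' promoters, in 7.12% of those of tested genes and in 13.6% of all promoters. ETS and YY1 letters may share an AAG, and such overlaps were counted for both. CpG dinucleotides were also frequent, with an observed over expected ratio of at least 0.6 in 90.7% of the members' promoters, against 68.2% and 35.8%. A match describes letters only, and binding of a factor was not measured.

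**Figure D1:**
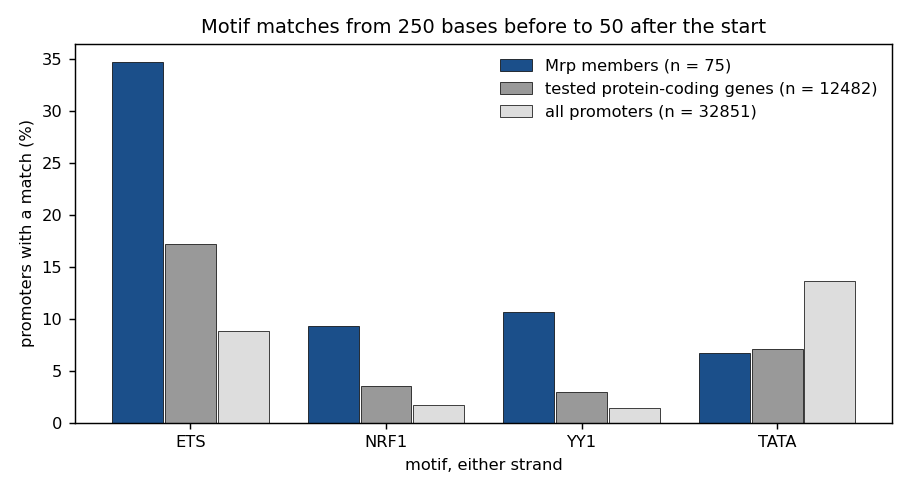
Share of promoters, in percent, that hold the letters of 4 motifs on either strand, for the Mrp genes (75 promoters), tested protein-coding genes (12482) and all promoters (32851). The bars of the Mrp genes are the tallest for ETS (34.7%), NRF1 (9.33%) and YY1 (10.7%), while for TATA the tallest bar is that of all promoters (13.6%).

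Stretches upstream of 4 members are shown because they place these letters close to the start: Mrpl34 had the highest level per kilobase, and Mrpl22, Mrpl43 and Mrpl9 each had more than 1 match in the stretch. Each is the part before the RefSeq start that overlaps no annotated exon, read 5′ to 3′ on the strand of the gene, and capitals mark the matched letters. The stretch of Mrpl34 (chr8:71464676-71464925, + strand) holds 1 ETS match, that of Mrpl22 (chr11:58171414-58171660, + strand) an ETS and an NRF1 match, that of Mrpl43 (chr19:45006443-45006557, - strand) 2 ETS matches, and that of Mrpl9 (chr3:94443086-94443317, + strand) NRF1 letters on both strands that overlap.
Mrpl34: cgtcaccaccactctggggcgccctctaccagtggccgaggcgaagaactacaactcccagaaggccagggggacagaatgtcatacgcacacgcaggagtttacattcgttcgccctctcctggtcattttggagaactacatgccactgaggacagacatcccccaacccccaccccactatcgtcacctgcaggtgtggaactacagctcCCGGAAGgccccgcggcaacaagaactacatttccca
Mrpl22: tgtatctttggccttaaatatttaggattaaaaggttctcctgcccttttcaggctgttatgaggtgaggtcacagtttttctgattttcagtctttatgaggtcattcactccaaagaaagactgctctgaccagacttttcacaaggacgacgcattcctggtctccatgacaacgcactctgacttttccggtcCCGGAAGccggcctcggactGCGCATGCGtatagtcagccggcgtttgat
Mrpl43: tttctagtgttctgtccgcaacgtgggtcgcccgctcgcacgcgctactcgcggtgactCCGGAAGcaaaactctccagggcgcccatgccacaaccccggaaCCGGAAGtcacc
Mrpl9: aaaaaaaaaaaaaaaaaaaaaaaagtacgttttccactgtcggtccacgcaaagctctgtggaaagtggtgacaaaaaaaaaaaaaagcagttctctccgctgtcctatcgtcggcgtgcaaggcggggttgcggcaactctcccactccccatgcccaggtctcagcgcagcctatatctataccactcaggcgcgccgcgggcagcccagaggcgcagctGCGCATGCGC

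In cold-exposed iBAT, the Mrp genes had a median level of 42.9 CPM per kilobase of their longest transcript, against 5.24 for all 12277 protein-coding genes tested. Of the 78 members, 77 were above the median protein-coding gene and 65 above the 75th percentile. By subunit the medians were 47.2 CPM per kilobase for the 51 genes of the large and 34.0 for the 26 genes of the small subunit, the remaining gene being Mrps36. With the length of all exons merged, these medians were 22.9 and 22.1, so the gap between subunits depended on the length used. Nuclear-encoded respiratory chain genes (named Nduf, Sdh, Uqcr, Cox and Atp5) stood higher, with a median of 326 CPM per kilobase over 95 genes. The 81 cytosolic ribosomal protein genes had a median of 121. Factors that assemble the mitoribosome stood lower, at 8.73 over 25 genes.

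Mrpl34, a small conserved protein of the large subunit, was the highest per kilobase on the longest transcript, at 234 CPM per kilobase (GENCODE M21, chr8:71464959-71465747). Its level was 146, 134, 142, 165 and 146 CPM in ΔGm15551 replicates 1, 2, 4, 5 and 7, and 148, 126, 136, 127 and 148 CPM in wild type replicates 2, 3, 5, 6 and 7. The groups overlapped. Mrpl42, mitochondria-specific, followed at 225 CPM per kilobase, but at 40.7 when all its exons were merged. Mrps21, a conserved protein of the small subunit, stood at 181 and Mrpl12 at 175 CPM per kilobase. Mrpl12 forms the flexible stalk of the large subunit and also binds the mitochondrial RNA polymerase. It had the highest CPM of the family, with 270, 184, 206, 265 and 209 CPM in ΔGm15551 mice and 222, 206, 236, 206 and 301 CPM in wild type mice (same replicate order), so the highest value was that of wild type replicate 7.

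Mrps36, at 190 CPM per kilobase, carries an Mrp name but is no part of the mitoribosome. Its protein is a component of the α-ketoglutarate dehydrogenase complex of the citric acid cycle. It was among the least variable members, with a standard deviation (SD) between mice of 0.09 on the log2 scale. The length of the longest transcript and that of the merged exons gave 7 genes in common among the 10 highest, which were Mrpl12, Mrpl2, Mrpl20, Mrpl34, Mrps21, Mrps23 and Mrps36.

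The lowest per kilobase of the longest transcript were Mrpl23 (4.13), Mrpl19 (7.56), Mrpl32 (8.07), Mrps26 (8.22) and Mrps17 (8.52). Both lengths gave 6 genes in common among the 10 lowest, which were Mrpl1, Mrpl19, Mrpl23, Mrpl32, Mrps17 and Mrps30. Mrpl23, whose protein lies at the exit of the peptide tunnel, was counted at 3.30, 2.27, 2.75, 2.22 and 2.83 CPM in ΔGm15551 mice, and at 3.13, 4.71, 2.72, 3.06 and 3.39 CPM in wild type mice. This value is uncertain, because a processed pseudogene on chromosome 2, Mrpl23-ps1, drew more counts. The pseudogene had 24.2 ± 6.52 CPM (ΔGm15551) and 25.1 ± 6.04 CPM (wild type, SD with n = 5 each), from 4.00 to 14.8 times the CPM of the gene across mice. Of its 31-base words, 94.6% also occur in Mrpl23 transcripts. Gene and pseudogene together came to 26.9 ± 6.58 CPM (ΔGm15551) and 28.5 ± 5.82 CPM (wild type, SD with n = 5 each). The other 5 records of Mrp pseudogenes held at most 6 counts each over all mice.

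**Figure D2:**
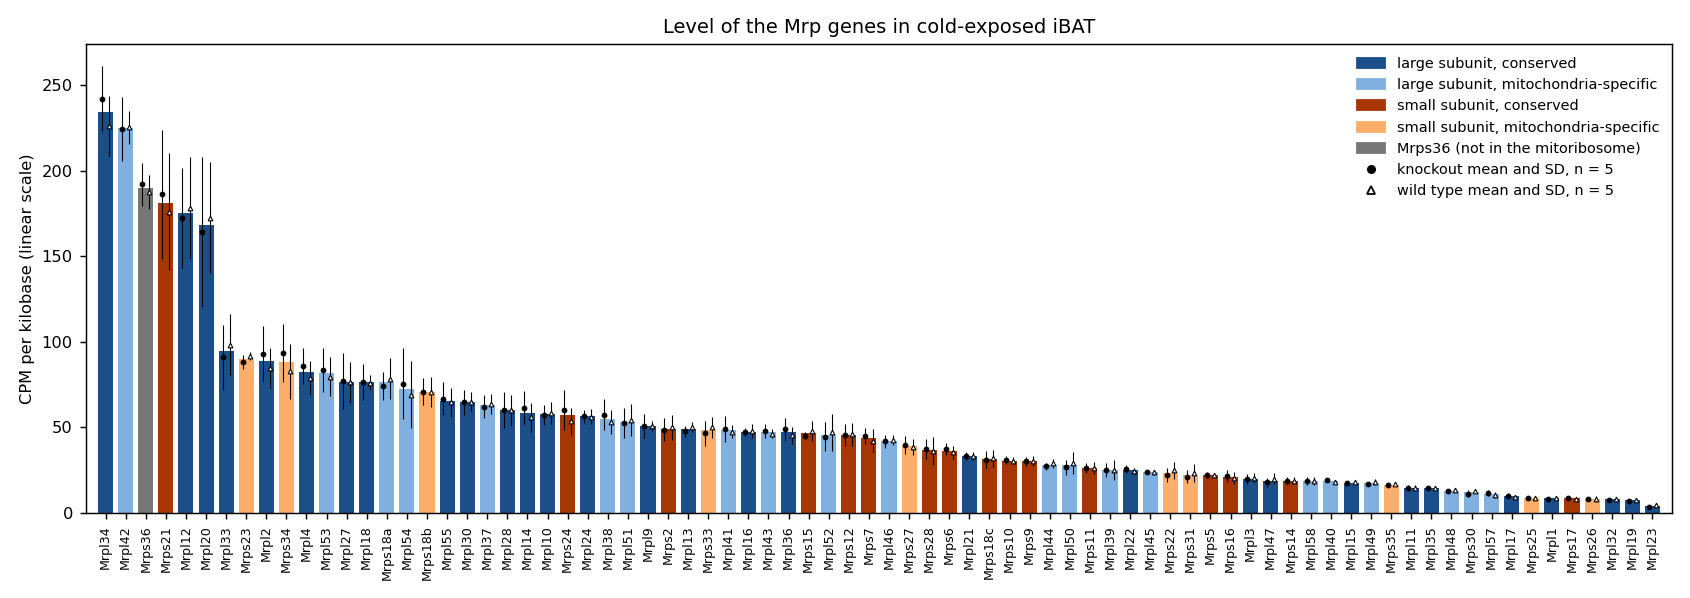
Level of the 78 Mrp genes in CPM per kilobase of the longest transcript, on a linear scale from 0, in falling order. Bars give the mean over 10 mice and are coloured by subunit and origin, and filled circles and open triangles give the ΔGm15551 and wild type means with SD (n = 5 each). Levels fall from 234 for Mrpl34 to 4.13 for Mrpl23, and the symbols of both genotypes sit close to each other along the order.

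The 3 forms of the ribosomal protein S18 are encoded by separate genes. Mrps18a belongs to the large subunit, like Mrps30, although both are named for the small one, while Mrps18b and Mrps18c belong to the small subunit. On the longest transcript Mrps18a stood at 76.3, Mrps18b at 70.8 and Mrps18c at 31.6 CPM per kilobase. With merged exons the values were 18.3, 36.6 and 24.1, so their order was not fixed by these data.

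Whether loss of Gm15551 changed these genes was tested with edgeR's quasi-likelihood test over all 13733 genes. None of the 78 Mrp genes was called at an adjusted p under 0.05, where the background was 0.0% of all genes tested. The smallest adjusted p of a member was 0.99998 (Benjamini-Hochberg). At an unadjusted p under 0.05, 0 of 78 members passed, against a background of 1.6% (220 genes, with 0.961% higher and 0.641% lower in ΔGm15551). By limma-voom and by DESeq2, likewise, 0 of 78 passed either threshold. No member had groups that did not overlap, against a background of 0.32% (0.226% with ΔGm15551 above and 0.0947% below).

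The family as a whole lay close to 0. The median log2 fold change (ΔGm15551 over wild type) was -0.005 for members and -0.001 for all genes, with 36 members higher and 42 lower (49.7% and 50.3% of all genes tested). In 58 members the change was under 0.1 and in 77 under 0.2 on the log2 scale, the latter being true of 79.4% of all genes tested. The summed level was 5245, 4693, 4724, 5514 and 5061 CPM in ΔGm15551 replicates 1, 2, 4, 5 and 7, and 5079, 4750, 5053, 4947 and 5393 CPM in wild type replicates 2, 3, 5, 6 and 7. These sums overlapped over nearly their whole range, and both the lowest and the highest were ΔGm15551 mice. The balance of the subunits was also alike, with a large to small ratio of summed CPM of 2.28 ± 0.04 in ΔGm15551 and 2.31 ± 0.05 in wild type mice (SD, n = 5 each).

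What size of change the data leave possible is given by the limma-voom 95% interval of each gene. For 78 of 78 members it stayed inside a 2-fold change up or down (90.0% of all genes tested) and within a 1.5-fold change for 77 of 78 (66.0% of all genes tested). Of 9864 protein-coding genes in the members' range of CPM, 9642 stayed inside 2-fold and 8192 inside 1.5-fold. The exception among the members was Mrpl23, with an interval from -0.74 to 0.10. Its estimate was -0.34 ± 0.20 (log2, standard error (SE), unadjusted p = 0.113 by edgeR). It was also the member with the largest change in size and the fewest counts. Its pseudogene changed by -0.05 ± 0.20 (log2, SE) with an unadjusted p of 0.809 by edgeR. Without 1 mouse at a time the estimate of Mrpl23 ran from -0.43 (without knockout replicate 1) to -0.20 (without wild type replicate 3). Without wild type replicates 5, 6 and 7 it was -0.55, with unadjusted p = 0.0765 by edgeR. That fit kept only wild type replicates 2 and 3 of their genotype, and replicate 3 had the highest Mrpl23 value, 4.71 CPM. In that last set of mice, 77 of 78 members had an interval inside a 2-fold change.

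In the large subunit, the conserved members had log2 fold changes with a median of -0.009 (n = 30) and the mitochondria-specific ones of -0.016 (n = 21). Next after Mrpl23, the smallest unadjusted p of a lower member was that of Mrpl19, a conserved protein. Mrpl19 had 35.4, 35.9, 39.1, 34.4 and 36.0 CPM in ΔGm15551 mice and 36.8, 42.1, 39.3, 39.4 and 39.7 CPM in wild type mice, replicates in the order above. Of the ΔGm15551 mice, 4 were below every wild type mouse and knockout replicate 4 was within their range. The log2 fold change was -0.13 ± 0.09 (SE, unadjusted p = 0.159 by edgeR), and 37.9% of the words in its transcripts also occur in other records, mainly Gcfc2. On the higher side stood Mrpl57, mitochondria-specific, at 0.17 ± 0.14 (log2, SE) with an unadjusted p of 0.222 by edgeR. The other large-subunit members with the smallest p were Mrps30 (log2 fold change -0.16 ± 0.13 SE), Mrpl47 (-0.17 ± 0.14) and Mrpl32 (-0.11 ± 0.10) on the lower side, and Mrpl4 (0.13 ± 0.12) and Mrpl17 (0.11 ± 0.11) on the higher side. Their unadjusted p by edgeR ran from 0.231 for Mrps30 to 0.323 for Mrpl17. Mrpl58, a peptidyl-tRNA hydrolase that frees stalled mitoribosomes, was at 48.6 ± 5.89 CPM (ΔGm15551) and 49.1 ± 6.02 CPM (wild type, SD with n = 5 each). Mrpl12 was at 227 ± 38.5 and 234 ± 39.4 CPM (SD, n = 5 each).

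In the small subunit the median log2 fold change was 0.011 for conserved (n = 16) and -0.055 for mitochondria-specific members (n = 10). Mrps34, mitochondria-specific, had 103, 77.3, 70.9, 103 and 75.4 CPM in ΔGm15551 mice and 77.3, 57.2, 77.1, 70.6 and 97.5 CPM in wild type mice. The groups overlapped, with knockout replicates 1 and 5 and wild type replicate 7 high. Its log2 fold change was 0.18 ± 0.16 (SE, unadjusted p = 0.276 by edgeR). Without the muscle-richest library of each genotype its log2 fold change was 0.34 (unadjusted p = 0.0393, adjusted p = 0.919 by edgeR), the 1 member with an unadjusted p under 0.05 where 4.10% of all genes had one. Without wild type replicates 5, 6 and 7 it was 0.35, and without 1 mouse at a time it ran from 0.09 (without wild type replicate 3) to 0.28 (without wild type replicate 7). Its exons overlap other genes and 73.8% of its transcript words are shared, so its reads are hard to assign. Mrps24, a conserved protein at the mRNA entry, stood at 60.0 ± 11.7 CPM (ΔGm15551) and 53.4 ± 7.80 CPM (wild type, SD with n = 5 each). Mrps12 was at 40.2 ± 5.68 and 40.5 ± 6.13 CPM (SD, n = 5 each).

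**Figure D3:**
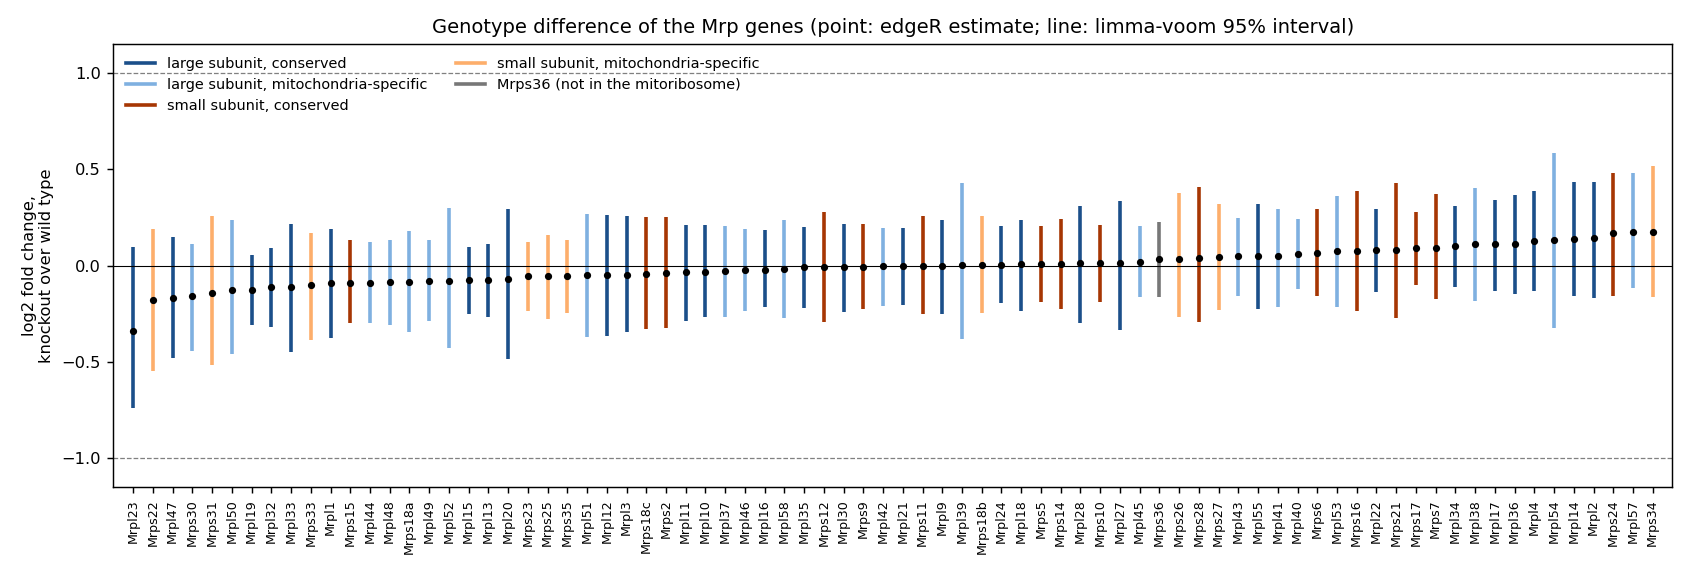
Log2 fold change of each of the 78 Mrp genes, ΔGm15551 over wild type (n = 5 each), in rising order. Points are edgeR estimates, lines are limma-voom 95% intervals coloured by subunit and origin, and dashed lines mark a 2-fold change. Every interval includes 0 and stays inside the dashed lines, and Mrpl23 at the left end reaches lowest, to -0.74.

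The rest of the mitochondrial translation system was examined with lists of genes that carry no Mrp name. All 5 remaining mitoribosome proteins were tested, and 0 passed at an adjusted p under 0.05 (0.0% of all genes tested). Dap3, the GTP-binding protein of the small subunit, was at 56.2 ± 8.60 CPM (ΔGm15551) and 57.3 ± 3.49 CPM (wild type, SD with n = 5 each). Gadd45gip1 of the large subunit was at 50.6 ± 10.6 and 50.1 ± 10.6 CPM (SD, n = 5 each). Aurkaip1 and Chchd1 of the small subunit were at 0.05 ± 0.13 and 0.02 ± 0.13 in log2 fold change (SE), and Ptcd3, a pentatricopeptide repeat protein of that subunit, at -0.13 ± 0.18. The counts were likewise 0 of 25 assembly factors, 0 of 14 translation factors, 0 of 17 mitochondrial aminoacyl-tRNA synthetases and 0 of 7 genes of mitochondrial transcription. At an unadjusted p under 0.05, which 1.6% of all genes tested had, 0 genes of these lists passed. The smallest of them was that of Lars2, the mitochondrial leucyl-tRNA synthetase, at 450 ± 148 CPM (ΔGm15551) and 342 ± 56.3 CPM (wild type, SD with n = 5 each). Its log2 fold change was 0.39 ± 0.19 (SE, unadjusted p = 0.0623 by edgeR). Of the templates that mitoribosomes read, the mitochondrially encoded genes, 0 of 13 were called, and 0 of 95 respiratory chain and 0 of 81 cytosolic ribosomal protein genes.

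Among mice of the same genotype, the spread of the Mrp genes was set beside that of other genes. The median SD of log2 CPM within genotype was 0.178 for members, against 0.254 for tested protein-coding genes and 0.231 for those in the same range of CPM. It was 0.272 for cytosolic ribosomal protein and 0.263 for respiratory chain genes. The genes in the same range had a median of 21.5 CPM and the members 56.7, so these sets were not matched on level. The steadiest member was Mrpl15, a conserved protein of the large subunit (chr1:4773206-4785739), with an SD of 0.05. It had 72.5, 76.8, 71.3, 68.4 and 74.3 CPM in ΔGm15551 mice and 75.4, 74.7, 78.0, 79.0 and 76.2 CPM in wild type mice. All 10 mice thus sat between 68.4 and 79.0 CPM. Mrps23 (SD 0.05) and Mrpl40 (SD 0.06), both mitochondria-specific, were next.

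The most variable were Mrpl54, Mrpl39 and Mrps31, all mitochondria-specific, with SDs of 0.386, 0.334 and 0.319. Mrpl54 (chr10:81264713-81266934) had 61.6, 31.8, 35.9, 54.1 and 44.7 CPM in ΔGm15551 mice and 43.2, 31.9, 39.2, 33.1 and 61.2 CPM in wild type mice. It was high in knockout replicates 1 and 5 and in wild type replicate 7. Mrpl39 (chr16:84717576-84735742) had 41.7, 66.4, 61.5, 57.3 and 63.0 CPM in ΔGm15551 mice and 56.4, 66.0, 63.2, 68.4 and 35.3 CPM in wild type mice. It was lowest in wild type replicate 7 and knockout replicate 1, where Mrpl54 was highest. Mrps31 was lowest in the same mice, at 23.2 CPM in wild type replicate 7 and 25.7 CPM in knockout replicate 1. Without wild type replicate 7 the SDs were 0.328 for Mrpl54, 0.216 for Mrpl39 and 0.236 for Mrps31, and Mrpl54 was still the most variable member while Mrpl39 ranked 19 and Mrps31 ranked 11 of 78.

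This opposition extended to other members. When each gene was centred on its genotype mean, a first principal axis held 69.6% of the variance of the 78 members, against 41.9% for all genes tested. Scores on it were highest in wild type replicate 7 (0.56), knockout replicate 1 (0.44) and knockout replicate 5 (0.30), and lowest in wild type replicate 3 (-0.37) and knockout replicate 2 (-0.32). Without wild type replicate 7 the first axis held 61.5% of the members' variance (34.3% for all genes), and without the 3 mice of highest score 52.4% (37.5% for all genes). At one end stood Mrpl54, Mrpl20, Mrpl52, Mrps21, Mrps34, Mrps28, Mrpl27, Mrpl33, Mrps26 and Mrpl12. At the other stood Mrpl39, Mrps31, Mrps22, Mrpl50, Mrpl47, Mrpl3, Mrpl1, Mrps30, Mrps2 and Mrps27. Both ends mixed subunits and both conserved and mitochondria-specific proteins.

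The ends differed in the length and base composition of their transcripts. The first 10 genes had a median length of 760 bp and a median GC content of 53.5%, and the last 10 had 2204 bp and 45.4%. Over all 78 members the loading on the axis had a Spearman rho of -0.46 with length and 0.37 with GC content, a description across genes. Without wild type replicate 7 these were -0.49 and 0.41. Short transcripts outside these families moved with the same mice. The 195 other protein-coding genes with transcripts under 800 bp deviated from their genotype mean by a median of 0.27 in knockout replicate 1, 0.24 in knockout replicate 5 and 0.37 in wild type replicate 7 (log2), and by -0.21 in knockout replicate 2 and in wild type replicate 3. Outside genes were also grouped by GC content, from the lowest (under 44.3%) to the highest (from 56.1%). Their median deviation ran from -0.23 to 0.21 in knockout replicate 5 and from -0.13 to 0.15 in wild type replicate 7. It ran from 0.21 to -0.22 in wild type replicate 3, from 0.086 to -0.077 in knockout replicate 2, and only from -0.013 to 0.026 in knockout replicate 1. Muscle markers made up 0.0878% of counts in knockout replicate 1, 0.00804% in knockout replicate 5 and 0.313% in wild type replicate 7, and 0.196% in knockout replicate 4, which had a score of -0.25. The part of transcript length, base composition, RNA quality and tissue makeup in this axis was not tested.

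**Figure D4:**
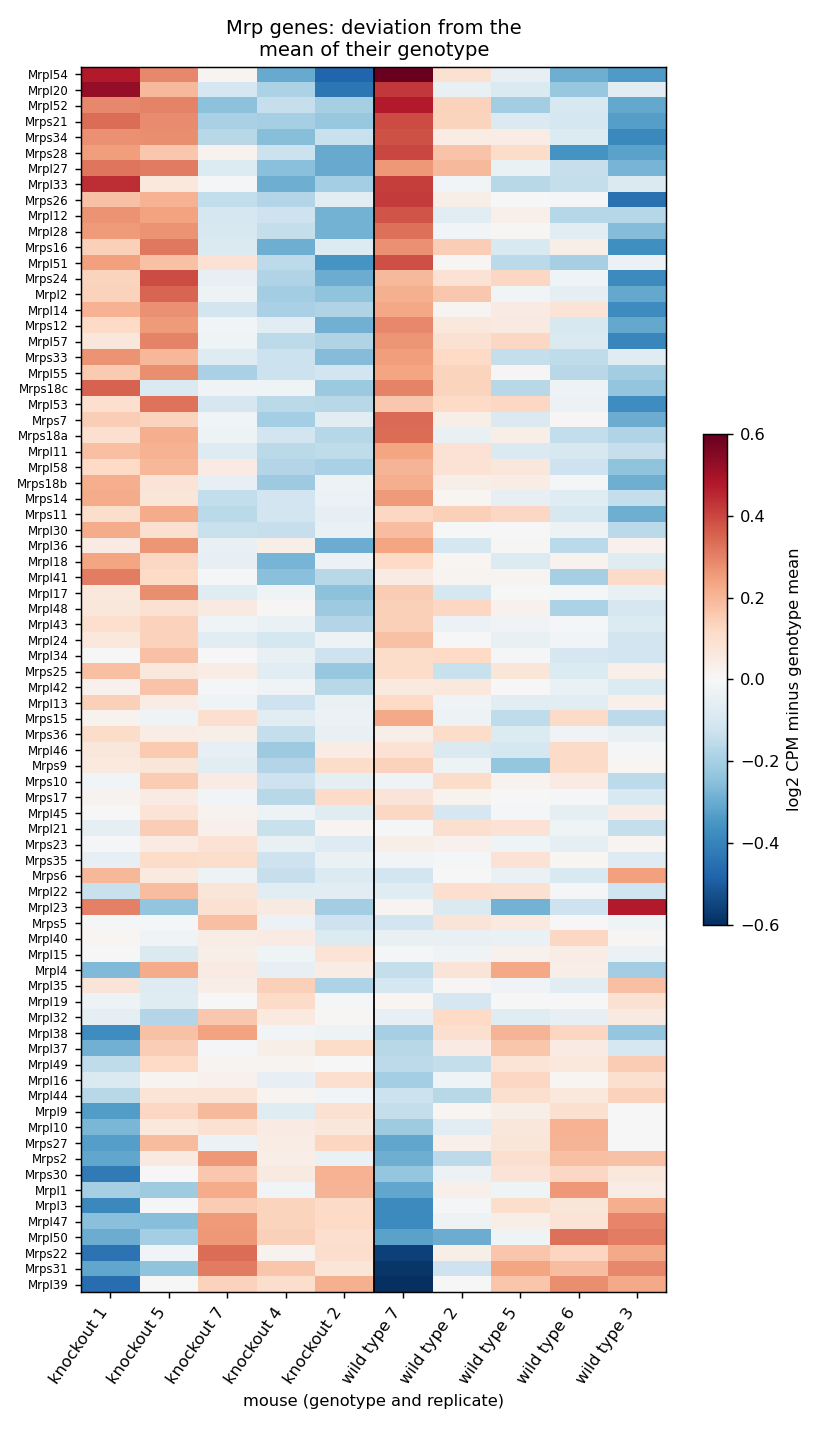
Deviation of each Mrp gene (rows) from the mean of its genotype, in log2 CPM, for each mouse (columns, knockout left of the line and wild type right of it). Rows follow the loading on the first axis and columns its score within genotype. Genes at the top are high (red) in knockout replicates 1 and 5 and wild type replicate 7, while genes at the bottom are mostly low (blue) in knockout replicate 1 and wild type replicate 7, and Mrpl54 and Mrpl39 are the outermost rows.

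The summed level of the Mrp genes was set beside that of other gene groups across the 10 mice. With the summed CPM of nuclear respiratory chain genes it had a Pearson r of 0.969 and a Spearman rho of 0.952, and r was 0.939 without the 2 mice farthest from the median sum. With cytosolic ribosomal proteins r was 0.902 and rho 0.915, and r was 0.910 without those 2 mice. Without wild type replicate 7, r was 0.968 with the respiratory chain and 0.884 with cytosolic ribosomal proteins. With the 13 mitochondrially encoded genes, whose messages mitoribosomes translate, r was 0.012 and rho 0.067. That r was 0.368 without the 2 mice and -0.095 without wild type replicate 7. All of these sums come from the same libraries and share their scaling. The short transcripts described above also followed the Mrp sum (r = 0.842, rho = 0.806, and 0.810 and 0.767 without wild type replicate 7), and the part of that in the other relations was not tested. Of all 10 mice, knockout replicate 5 had the highest and knockout replicate 2 the lowest Mrp sum, and the same held for the respiratory chain sum. The CPM of the single gene Ucp1 went the other way, with r = -0.535 and rho = -0.6 against the Mrp sum. That r was -0.579 without those 2 mice. For the share of muscle markers r was 0.249 and rho 0.467.

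**Figure D5:**
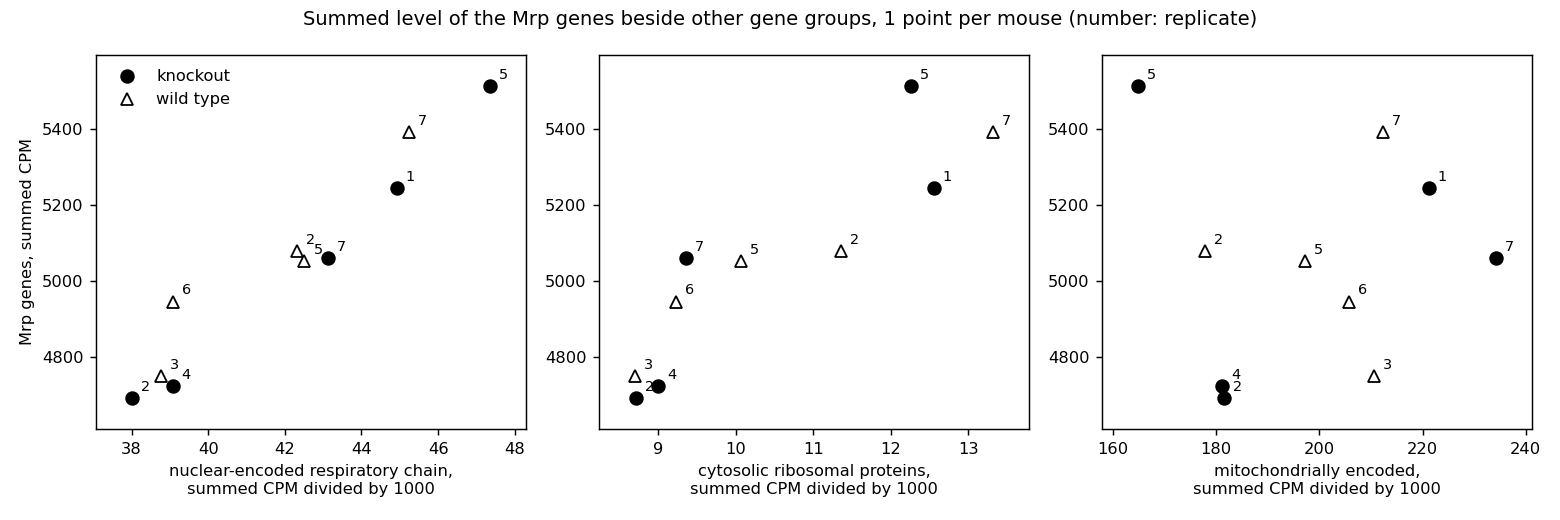
Summed CPM of the 78 Mrp genes (vertical axes) against summed CPM, divided by 1000, of 3 other gene groups (horizontal axes), with 1 point per mouse, numbered by replicate, filled for ΔGm15551 and open for wild type. The axes do not start at 0. The points rise together in the panels of respiratory chain (r = 0.969) and cytosolic ribosomal protein genes (r = 0.902) and show no common course in the panel of mitochondrially encoded genes (r = 0.012).

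Reads of some members cannot be assigned with certainty. Exons of 28 members overlap those of another gene on the opposite strand and exons of 8 on the same strand, and the sources used here do not state whether counting used the strand. Words of 31 bases shared with other records made up a median of 6.5% of a member's words. In 13 members they exceeded 20%, most in Mrpl53 (84.4%), Mrps34 (73.8%) and Mrps25 (68.9%), and 16 members shared none. Words were pooled over all annotated transcripts of a member and matched on both strands. Mrpl23 thus stood at 14.2%, although its single transcripts shared from 4.15% to 86.1% of their words with Mrpl23-ps1.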

How the data were processed

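The authors deposited estimated counts per gene, rounded to whole numbers, for iBAT of 10 mice. The submitters' processing notes name bcl2fastq, cutadapt, Salmon and DESeq2 and the build GRCm38. The study's methods name the GENCODE M22 transcriptome, alone or with RNAcentral, and which of these this table used, and the tool versions, are not given in the sources used here. The members and gene lists were chosen with earlier results of these data known. Members carry a symbol starting with Mrpl or Mrps in a protein-coding record.

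Counts were normalised by TMM and tested with edgeR 4.0.16 (R 4.3.3; filterByExpr with a minimum count of 10 and a total of 15; robust quasi-likelihood fit), with Benjamini-Hochberg adjustment over all 13733 genes and a threshold of 0.05. Intervals came from limma 3.58.1 (voom), and DESeq2 1.42.0 was an alternative. Log2 CPM used a prior count of 2. Levels were divided by the longest transcript in GENCODE M21, in which all 78 members were found. Principal axes were computed on log2 CPM centred within genotype. Replicates are separate mice. Numbers 2, 5 and 7 occur in both genotypes, but same-numbered mice did not deviate together (r = 0.157, -0.099 and -0.089), so mice were not paired. No libraries agreed within sampling noise.

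Genes named were, by rule, the 5 highest and lowest per kilobase, the 5 smallest p in each direction, the 3 largest and smallest SDs, 8 members of special role and 5 mitoribosome proteins without an Mrp name. Members singled out by neighbours, promoter letters, shared words or the ends of the axis were chosen after their values were seen. Alternatives were another normalisation, filter, tool, covariate, length measure and set of mice. No table of protein sequences was used here.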

Additional observations from a re-analysis of the deposited data

Results flagged for a closer look

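Among 31 measures searched in both genotypes (62 groups of 5 mice, of which chance alone would give about 3.1, or 1 in 20), 1 mouse stood apart from the others of its group. Mrpl40, a mitochondria-specific protein of the large subunit, was at 25.6 CPM in wild type replicate 6, where the remaining mice of its genotype lay between 22.7 and 23.6 CPM. The gap to the nearest mouse made up 0.714 of the group's range, where the limit for 5 samples is 0.71. Mrpl40 was one of the steadiest members, and the ΔGm15551 mice ranged from 23.1 to 25.3 CPM.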

How the results depend on the processing

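The count of Mrp genes called between genotypes was 0 of 78 in the reported fit and under each of 23 other settings (normalisation, filter, limma-voom, DESeq2, covariates, fewer mice), and so was the count over all genes. The median log2 fold change of the members stayed between -0.033 and 0.069. Some estimates changed sign, and none of them passed the threshold under any setting. Leaving out 1 mouse at a time gave log2 fold changes from -0.0093 to 0.13 for Aurkaip1, -0.087 to 0.079 for Chchd1, -0.11 to 0.033 for Dap3, -0.0697 to 0.14 for Gadd45gip1, -0.12 to 0.059 for Mrpl12, -0.073 to 0.037 for Mrpl58, -0.0804 to 0.067 for Mrps12, -0.15 to 0.0072 for Mrps18a, -0.063 to 0.059 for Mrps18b and -0.14 to 0.036 for Mrps18c. Mrps18b was at -0.00098 with DESeq2 size factors and at -0.00067 by DESeq2. With a covariate for short transcripts, chosen after seeing the data, Mrps18b was at -0.016, Chchd1 at -0.011 and Gadd45gip1 at -0.027. Without the muscle-richest library of each genotype, also chosen after seeing the data, Mrps18a was at 0.036, Mrps18c at 0.046, Mrpl12 at 0.092, Mrpl58 at 0.0801 and Mrps12 at 0.088. Without the 3 wild type mice of the separate number series, they were at 0.0402, 0.0101, 0.085, 0.062 and 0.12 in that order. The cause was not tested.

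Replicate numbers 2, 5 and 7 occur in both genotypes but were not used to pair the mice in the reported fit. With the number as a replicate block over those 6 mice, 0 of 78 members were called and their median was -0.003, while 398 genes had an unadjusted p under 0.05 (554 in the same mice without the block). The blocked log2 fold changes that changed sign were 0.019 for Mrps30, -0.094 for Mrps18b, 0.13 for Dap3, -0.12 for Chchd1, 0.16 for Ptcd3 and -0.22 for Gadd45gip1. Without the block, the same mice gave 0.016, -0.095, 0.13, -0.12, 0.15 and -0.20, and 0.0022 for Mrpl47. Same-numbered mice had correlations of 0.157, -0.099 and -0.089. So few pairs cannot show whether these mice share more than a number.

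Levels per kilobase depended on the length used, as for Mrpl42 (225 on the longest transcript, 40.7 on merged exons). With 5 mice per genotype, the interval width of a member was a median of 0.511 on the log2 scale, against 0.728 for all genes, which limits how small a difference these data can detect.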

Other observations

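Among the neighbours that start near an Mrp gene was Klc4 (beside Mrpl2), which encodes a kinesin light chain. Klc4 had a log2 fold change of 0.36 ± 0.12 (ΔGm15551 over wild type, SE) by edgeR, with unadjusted p = 0.00867 and adjusted p = 0.99998. Ppp1r10 (beside Mrps18b), a regulatory subunit of protein phosphatase, was at 0.61 ± 0.20 (log2, SE) by edgeR, with unadjusted p = 0.0106 and adjusted p = 0.99998. Neither passed the adjusted threshold, the share of all genes below an unadjusted 0.05 was 1.6%, and they were named after their values were seen. Their Mrp partners were at 0.14 for Mrpl2 and 0.003 for Mrps18b on the log2 scale.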
